A study of Mus musculus with 12 samples.

Results

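The data describe H3K27 acetylation at 8 sarcomere genes in adult cardiomyocytes (CMs), namely Actc1, Tnnt2, Tnni3, Tnnc1, Tpm1, Tmod1, Lmod2 and Myl3. For each gene, every listed H3K27ac region that overlapped the gene body of GENCODE M21 (GRCm38) extended by 5 kb on each side was taken, and this stretch is called the window of the gene. The windows held 31 of the 53754 regions of control CMs and 35 of the 45521 regions of RIP140-null CMs. H3K27ac was profiled by CUT&RUN, in which an antibody directs a nuclease to cut out the chromatin it binds, in CMs of 10- to 12-week-old mice, with 200000 cells per experiment. RIP140-null CMs came from Nrip1 f/f Cre+ mice (csNrip1-/-), whose Cre recombinase is driven by the Nkx2.5 promoter, and control CMs came from Nrip1 f/f Cre- littermates. Both genotypes carried the floxed Nrip1 alleles, and the Nkx2.5 promoter is active from the embryonic heart onward. Controls carried no Cre, so the presence of Cre and the loss of RIP140 cannot be told apart. Each genotype had 3 H3K27ac and 3 IgG replicates. One list per genotype was analysed, holding the regions found in at least 2 of 3 replicates, with no value for any single replicate. There is therefore no replicate error and no test below, and each difference is a description of 2 lists.

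Thin filaments are the actin-based filaments of the sarcomere, along which myosin heads pull. Cardiac alpha-actin (Actc1) forms the filament, and tropomyosin (Tpm1) winds along it and covers the myosin binding sites. The troponin complex moves tropomyosin when calcium binds. Within it troponin C (Tnnc1) binds calcium, troponin I (Tnni3) inhibits contraction and troponin T (Tnnt2) anchors the complex to tropomyosin. Tropomodulin (Tmod1) caps the pointed end of the filament and leiomodin 2 (Lmod2) lengthens it there. Myl3, by contrast, encodes the ventricular essential light chain of myosin, a thick filament protein, so the set holds 7 thin filament genes and 1 gene of the thick filament. H3K27ac is a histone mark of active promoters and enhancers, and RIP140, the product of Nrip1, is a corepressor of nuclear receptors such as the estrogen-related receptors (ERRs).

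The depth of the libraries is unknown, since the lists hold positions only. The last exon of Nrip1, which holds its coding sequence (chr16:76287400-76295015), had 2904 bp under regions of control CMs and 0 bp under those of RIP140-null CMs. Of 7 CM marker genes, 6 had regions in both lists and Nppa had a region in RIP140-null CMs only (866 bp). Markers of other cells were also covered. All 5 endothelial markers had regions in both lists (68605 bp in control and 76248 bp in RIP140-null CMs, summed), as did all 4 smooth muscle markers (21568 and 22750 bp). By gene, 2 endothelial markers were covered over more bp in RIP140-null CMs and 3 over fewer, with a median log2 ratio of -0.07. Of the smooth muscle markers, 3 were covered over more bp and 1 over fewer. Fibroblast markers were covered over 4496 bp in control and 834 bp in RIP140-null CMs, and of 5 macrophage markers 4 had no region in either list, the exception being Cd68 (1173 and 4128 bp). Skeletal muscle markers were covered over 6149 and 5428 bp, of which 5607 and 5304 bp lay at Ckm, the muscle creatine kinase gene. In another mouse line of the study, the promoter of this gene drove Cre in both heart and skeletal muscle. Myh1 and Myh4 had no region in either list, Actn3 had 542 bp in control CMs alone and Myod1 124 bp in RIP140-null CMs alone. What part other cells had in the values of the sarcomere genes was not tested.

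All 8 genes had a region over the start of their first RefSeq transcript in both genotypes. Of the 11065 protein-coding genes that had a RefSeq start and a region of either list, 68.1% had a start covered in both genotypes. There any RefSeq start of the gene counted, not the first alone. The stretches upstream of the first start of 4 of the 8 genes are printed below. They lay inside the regions of both genotypes over their full length and hold the sequence matches named below. They are RefSeq sequences of GRCm38.p6, on the strand of the gene, without any annotated exon. Capitals mark matches to the CArG box (the binding sequence of SRF) and to MCAT (CATTCC, the sequence bound by TEAD factors), searched on both strands.
Actc1 (chr2:114052888-114053125, minus strand): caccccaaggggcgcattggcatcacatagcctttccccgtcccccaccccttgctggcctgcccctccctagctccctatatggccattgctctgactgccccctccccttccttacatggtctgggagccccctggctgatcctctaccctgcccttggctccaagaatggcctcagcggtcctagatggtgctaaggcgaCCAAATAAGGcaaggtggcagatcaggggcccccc
Tnnt2 (chr1:135836084-135836333, plus strand): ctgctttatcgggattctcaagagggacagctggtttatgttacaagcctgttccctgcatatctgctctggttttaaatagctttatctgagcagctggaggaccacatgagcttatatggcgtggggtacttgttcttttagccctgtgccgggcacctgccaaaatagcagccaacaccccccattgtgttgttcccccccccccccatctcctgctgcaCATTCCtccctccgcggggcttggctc
Tnnc1 (chr14:31208062-31208311, plus strand): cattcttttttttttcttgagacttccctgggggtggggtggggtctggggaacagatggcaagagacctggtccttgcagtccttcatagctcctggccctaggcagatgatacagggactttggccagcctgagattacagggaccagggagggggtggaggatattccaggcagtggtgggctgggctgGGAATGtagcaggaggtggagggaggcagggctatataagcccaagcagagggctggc
Myl3 (chr9:110763428-110763645, plus strand): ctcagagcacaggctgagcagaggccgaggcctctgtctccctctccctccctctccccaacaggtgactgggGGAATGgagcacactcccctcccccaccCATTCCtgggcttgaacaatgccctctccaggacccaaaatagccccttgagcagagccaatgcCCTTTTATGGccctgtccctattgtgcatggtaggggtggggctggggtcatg

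In the window from 250 bases upstream to 50 bases downstream of the start, CArG matches occurred in 2 of the 8 genes. The match in Actc1 lay 47 to 38 bp upstream of the start and the one in Myl3 lay 85 to 76 bp upstream, and 1.63% of all 32851 RefSeq promoters held one. MCAT occurred in 5 of 8, namely Tnnt2, Tnnc1, Tpm1, Tmod1 and Myl3, the last with 2 matches, against 14.7% of all promoters. No promoter of the set held a MEF2 match (0.557% of all promoters did), the GATA sequence AGATAAG (3.04%), the ERR sequence TCAAGGTCA (0.423%) or the NKX2-5 sequence TNAAGTG (11.5%). TATAAA was found in 1 of 8, in Actc1, at 33 to 38 bp downstream of the RefSeq start, and in 13.6% of all promoters. A match is a run of letters and not a measured binding site.

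**Figure D1:**
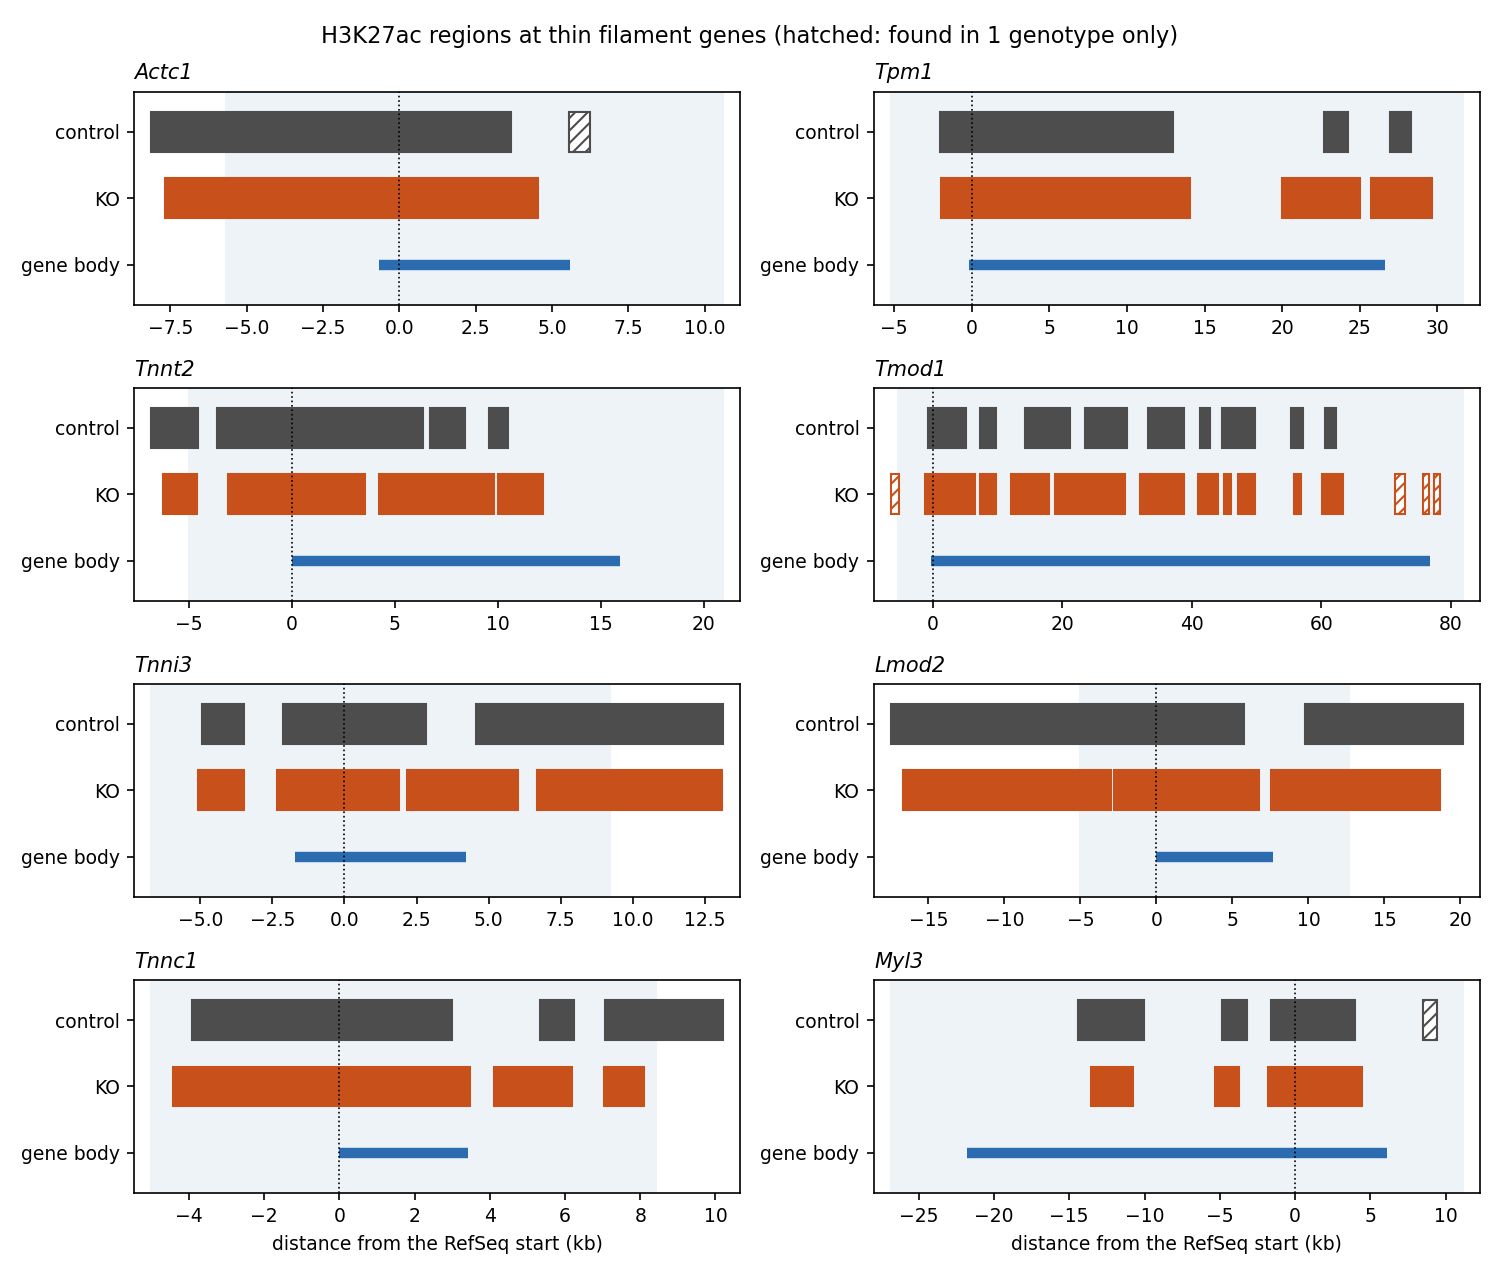
H3K27ac regions of control (grey) and RIP140-null CMs (KO, orange) at the 8 genes, by distance from the RefSeq start in kb in the direction of transcription, with the gene body of GENCODE M21 as a blue line and the window shaded. Hatched boxes overlap no region of the other genotype, and these are 1 control region at Actc1, 1 control region at Myl3 and 4 KO regions at Tmod1.

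The regions of control CMs covered 124935 bp of the 8 windows and those of RIP140-null CMs 148535 bp, which was 23600 bp or 1.19-fold more (0.25 on the log2 scale). This was 49.8% and 59.2% of the 251023 bp in the windows. Of the 8 genes, 7 were covered over more bp in RIP140-null CMs and Myl3 over fewer. Among the 14422 protein-coding genes with a region of either list, 57.4% were covered over more bp in RIP140-null CMs. No member passed 1.5-fold in either direction, whereas 19.8% of genes were covered over more than 1.5 times the length in RIP140-null CMs and 12.7% over more than 1.5 times less. These shares, and the 57.4%, include genes with regions in 1 list only, whereas all 8 members had regions in both. The median log2 ratio of covered length was 0.23 over the 8 genes and 0.08 over the 12970 genes with regions of both lists, whose quartiles were -0.20 and 0.39. Of the members, 6 lay inside these quartiles, Tpm1 above them (a higher ratio than 79.0% of genes) and Myl3 below (higher than 22.3%).

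The extra length was not spread evenly over the set. Tmod1 alone gave 10455 bp of it and Tpm1 6962 bp. Without Tmod1, whose window is the longest, the other genes were covered over 87373 bp in control and 100518 bp in RIP140-null CMs (log2 0.20). The 2 lists shared 114234 bp in the windows. Pooled over the windows, this was 91.4% of the control length and 76.9% of the RIP140-null length. By gene, the shares ran from 74.9% (Myl3) to 99.3% (Tpm1) of the control length. Of the RIP140-null length they ran from 70.3% (Tmod1) to 91.2% (Actc1). The medians over the 12970 genes with regions of both lists, also by gene, were 83.9% and 78.1%.

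**Figure D2:**
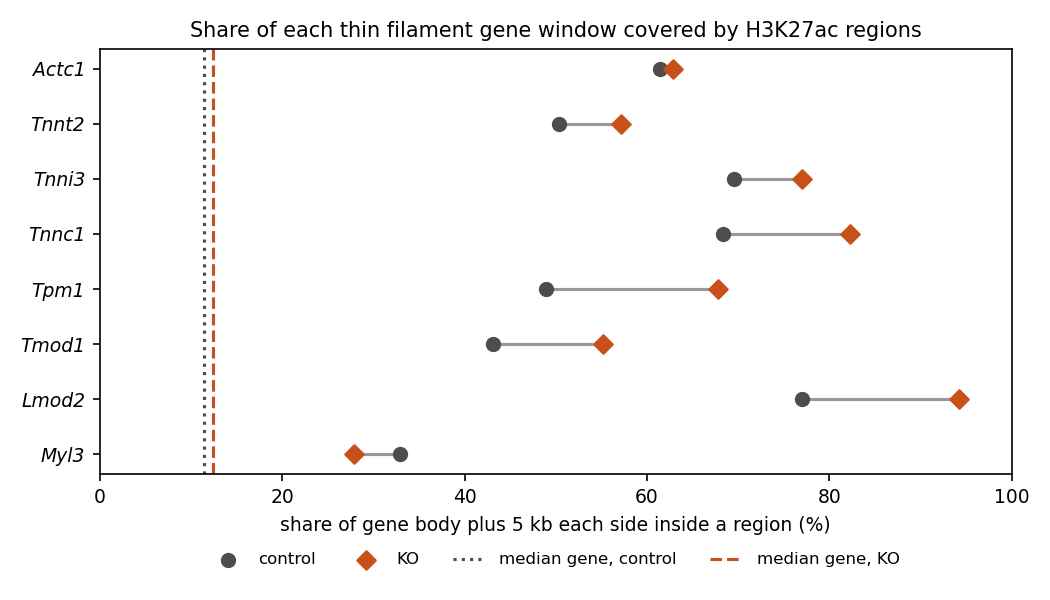
Share of each window inside an H3K27ac region, in percent, in control (grey circles) and RIP140-null CMs (KO, orange diamonds), with the median over all genes that had a region as vertical lines at 11.4% (control) and 12.4% (KO). All 8 genes lie to the right of both lines in both genotypes, and Myl3 is the gene whose KO value is the lower one.

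As a share of its window, each gene was covered more than the median gene, though window length was not matched. The median gene had 11.4% of its window inside regions in control and 12.4% in RIP140-null CMs. The members ranged from 33.0% (Myl3) to 77.0% (Lmod2) in control CMs and from 27.9% (Myl3) to 94.2% (Lmod2) in RIP140-null CMs. In control CMs the share at Lmod2 exceeded that of 99.4% of genes and in RIP140-null CMs that of 99.8%. The share at Myl3 exceeded that of 78.7% of genes in RIP140-null CMs. The regions were also wide, with a median width of 3124 bp in control and 3861 bp in RIP140-null CMs, against 1846 and 2291 bp over all regions. Their median GC content was 50.6% in both genotypes, against 45.0% and 45.7% over all regions.

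Actc1 (ENSMUSG00000068614, chr2:114047282-114053548, minus strand), the cardiac actin gene, differed least. Its window was covered over 10001 bp in control and 10227 bp in RIP140-null CMs (log2 0.03), which was 61.5% and 62.9% of the window. One region lay over the start and the upstream sequence in each genotype. In control CMs its edges were 8122 bp before and 3658 bp after the start (11781 bp), and in RIP140-null CMs 7660 bp before and 4553 bp after it (12214 bp). The RIP140-null region thus began 462 bp closer to the start and ended 895 bp further into the gene, within intron sequence over 847 bp of that length. Control CMs had a further region at the end of the gene, 5570 to 6238 bp downstream of the start (chr2:114046637-114047305, 669 bp), which no region of RIP140-null CMs overlapped. Its central 200 bp (chr2:114046871-114047070, minus strand, all outside exons) are shown because this is 1 of only 2 places in the windows with a region in control CMs alone, and capitals mark MCAT, GATA and TATA matches.
Actc1 control-only region: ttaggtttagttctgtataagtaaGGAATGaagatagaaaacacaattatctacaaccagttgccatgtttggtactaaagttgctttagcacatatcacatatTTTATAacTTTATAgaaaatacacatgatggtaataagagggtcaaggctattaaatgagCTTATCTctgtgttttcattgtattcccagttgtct

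Tpm1 (ENSMUSG00000032366, chr9:67022590-67049406, minus strand), the alpha-tropomyosin gene, differed most in proportion. The covered length was 18004 bp in control and 24966 bp in RIP140-null CMs (log2 0.47, 1.39-fold), or 48.9% and 67.8% of the window. Each genotype had 3 regions, and each region overlapped 1 region of the other list. The region over the start was similar, with 15068 bp in control and 15986 bp in RIP140-null CMs. The difference lay in the other 2 regions, toward the end of the gene. The region in the distal part of the gene body was 1580 bp wide in control and 5046 bp in RIP140-null CMs (log2 1.68), reaching 2701 bp further upstream and 765 bp further downstream. The region over the end of the gene was 1356 bp wide in control and 3934 bp in RIP140-null CMs (log2 1.54), reaching 1213 bp further upstream and 1365 bp further downstream. These were the largest 2 RIP140-null to control ratios of region width among the 24 loci of the set that both lists held, a locus being a run of regions that overlap across the lists. Of the 18004 bp covered in control CMs, 99.3% was also covered in RIP140-null CMs. The stretch covered in RIP140-null CMs alone, 19962 to 22662 bp downstream of the start, held a MEF2 match, shown in capitals with 25 bases on each side (chr9:67026742-67026801, minus strand, intron).
Tpm1 MEF2 match: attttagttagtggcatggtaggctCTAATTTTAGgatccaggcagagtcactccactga

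The 3 cardiac troponin genes were each covered over more bp in RIP140-null CMs, by smaller amounts. Tnnt2 (ENSMUSG00000026414, chr1:135836354-135852260, plus strand), encoding troponin T, had 13037 bp in control and 14814 bp in RIP140-null CMs (log2 0.18). Both genotypes had 4 regions there. The control region over the start was a single one of 10004 bp, whereas in RIP140-null CMs it was 6649 bp, with a gap from 3571 to 4229 bp downstream of the start before the next region began. The last region ended 10509 bp downstream of the start in control and 12202 bp in RIP140-null CMs. The most upstream region, over the neighboring gene Lad1, was 2242 bp in control and 1672 bp in RIP140-null CMs.

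Tnni3 (ENSMUSG00000035458, chr7:4518305-4524229, minus strand), encoding cardiac troponin I, had 11072 bp covered in control and 12262 bp in RIP140-null CMs (log2 0.15), in 3 and 4 regions. The region over the start was 4957 bp in control and 4239 bp in RIP140-null CMs. From 2813 to 4552 bp downstream of the start, across the end of the gene, 1740 bp were covered in RIP140-null CMs alone. The window also reached into Tnnt1, which encodes slow skeletal troponin T, and into Dnaaf3 and Gm15873. A region of 8571 bp in control and 6406 bp in RIP140-null CMs lay over Tnnt1, so part of the length counted for Tnni3 cannot be assigned to either gene.

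Tnnc1 (ENSMUSG00000091898, chr14:31208312-31211729, plus strand), encoding troponin C, had 9167 bp covered in control and 11045 bp in RIP140-null CMs (log2 0.27), or 68.3% and 82.3% of its window. The region over the start spanned the whole gene in RIP140-null CMs (7896 bp, with edges 4413 bp before and 3482 bp after the start) and ended at 2998 bp in control CMs (6920 bp). Downstream of the gene, over Nisch, the 2 loci went opposite ways. The nearer one was 900 bp wide in control and 2075 bp in RIP140-null CMs (log2 1.21), and the further one was 3124 bp and 1074 bp (log2 -1.54). At the further one, the control region extended past the window as far as Sema3g, whereas the RIP140-null region ended inside the window. Within the window, 306 bp of this locus were covered in control CMs alone.

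Tmod1 (ENSMUSG00000028328, chr4:46038935-46116032, plus strand), encoding the tropomodulin of cardiac muscle, had the most regions, 10 in control and 14 in RIP140-null CMs. They covered 37562 and 48017 bp (log2 0.35), or 43.1% and 55.1% of the window. The region over the start was 5957 bp in control and 7759 bp in RIP140-null CMs and ended 1401 bp further into the gene in the latter. Introns made up 11243 of the 14240 bp of the window covered in RIP140-null CMs alone. Intronic loci 41 and 60 kb downstream of the start were wider in RIP140-null CMs (1641 against 3131 bp, log2 0.93, and 1768 against 3171 bp, log2 0.84). Between them, a locus 55 kb downstream was narrower (1904 against 951 bp). A locus 45 kb downstream, of 1 region of 5168 bp in control CMs, was split into 2 regions of 3783 bp in sum. The 2 intronic stretches shown were covered in RIP140-null CMs alone and hold a CArG match (chr4:46045648-46045707) and an ERR match (chr4:46053118-46053176). Another one (chr4:46069162-46069220) was covered in control CMs alone and also holds an ERR match.
Tmod1 CArG match, RIP140-null stretch: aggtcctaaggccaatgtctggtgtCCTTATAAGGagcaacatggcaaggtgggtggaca
Tmod1 ERR match, RIP140-null stretch: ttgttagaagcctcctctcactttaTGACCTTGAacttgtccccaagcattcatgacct
Tmod1 ERR match, control stretch: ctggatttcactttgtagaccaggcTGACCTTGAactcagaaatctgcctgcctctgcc

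All 4 regions of the set that were found in RIP140-null CMs alone overlapped the Tmod1 window. They were 4 of 35 regions, 11.4% (95% Wilson interval 4.54 to 26.0, counting error only), whereas 21.5% of all regions of RIP140-null CMs overlapped no control region. This difference depended on the overlap required. When sharing needed a reciprocal overlap of 50%, the shares were 42.9% of the set and 42.4% of all regions. The most upstream one (chr4:46032839-46034022, 1184 bp) lay 6383 to 5200 bp upstream of the start, within Tdrd7, and only its last 88 bp were inside the window. The next (chr4:46110586-46112207, 1622 bp) lay 71364 to 72985 bp downstream of the start, in an intron. The third (chr4:46114941-46115835, 895 bp) lay over the last exon, where Tmod1 and Tstd2 overlap, and the fourth (chr4:46116581-46117487, 907 bp) beyond the end of Tmod1 over Tstd2. Thus 2 of the 4 touched the body of Tmod1. Tmod1 was 1 of 8 members with such a region, against 35.2% of all genes. Neither region width nor window length was matched in these comparisons. The central 200 bp of the intronic region, free of exons, are shown, with capitals for an MCAT match.
Tmod1 intronic region (chr4:46111297-46111496): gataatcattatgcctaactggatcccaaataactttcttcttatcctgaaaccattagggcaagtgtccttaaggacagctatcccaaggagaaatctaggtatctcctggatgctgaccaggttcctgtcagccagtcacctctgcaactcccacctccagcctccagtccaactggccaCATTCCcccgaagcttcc

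Lmod2 (ENSMUSG00000029683, chr6:24597762-24605414, plus strand), encoding leiomodin 2, had the highest share of its window covered, with 13588 bp in control and 16623 bp in RIP140-null CMs (log2 0.29). The region over its start was the widest of the set in control CMs, 23186 bp with edges 17452 bp before and 5733 bp after it, and wider than that of 99.3% of the 7952 genes with a start region. In RIP140-null CMs the same stretch was held by 2 regions of 13633 and 9527 bp, separated by a gap of 259 bp from 3022 to 2764 bp upstream of the start. Their sum, 23160 bp, differed from the control width by 26 bp. The gain in the window came from further downstream, where 1030 bp at the end of the region over the start and 2264 bp at the beginning of the last region, which reaches into Wasl, were covered in RIP140-null CMs alone.

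Myl3 (ENSMUSG00000059741, chr9:110741861-110769798, plus strand), the myosin light chain gene, was covered over 12504 bp in control and 10581 bp in RIP140-null CMs (log2 -0.24). Its GENCODE gene body begins 21817 bp upstream of its first RefSeq start, and no region lay over that base in either genotype. At the RefSeq start the region was 5531 bp in control and 6255 bp in RIP140-null CMs, so the gene's own start region went the other way from its window. The shortfall lay elsewhere. A region 14439 to 10026 bp upstream of the RefSeq start was 4414 bp wide in control and 2744 bp in RIP140-null CMs (log2 -0.69). A region 8462 to 9420 bp downstream of the start, past the end of the gene (chr9:110772140-110773098, 959 bp), was found in control CMs alone. The central 200 bp of the latter (chr9:110772519-110772718, plus strand, outside exons), shown because it is the other region of the set in control CMs alone, held none of the searched sequences.
Myl3 control-only region: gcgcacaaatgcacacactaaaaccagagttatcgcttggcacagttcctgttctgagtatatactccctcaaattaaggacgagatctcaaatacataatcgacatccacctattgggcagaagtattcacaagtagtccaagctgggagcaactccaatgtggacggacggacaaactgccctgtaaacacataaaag

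The control-only regions at Actc1 and Myl3 were 2 of 31, 6.45% (95% Wilson interval 1.79 to 20.7), whereas 29.5% of all control regions overlapped no region of RIP140-null CMs. Such a region was found at 2 of 8 members, against 39.2% of all genes. Neither region width nor window length was matched in these comparisons, and the regions of the set had a larger median width, as given above. Among regions of at least 1000 bp, the control-only shares were 3.70% of the set and 22.6% of all control regions. The part of width in these shares was not tested. The windows of Tnnt2, Tnni3, Tnnc1, Tpm1 and Lmod2 held no region of either genotype without a partner in the other. Of the 24 loci that both lists held, 17 were wider and 7 narrower in RIP140-null CMs, with a median log2 ratio of 0.13. Over all 32649 loci of both lists, 57.4% were wider in RIP140-null CMs, with a median of 0.08. Past 1.5-fold, 5 of the set were wider (2 at Tpm1, 2 at Tmod1 and 1 at Tnnc1) and 3 narrower (at Tnnc1, Tmod1 and Myl3), against 17.3% and 10.3% of all loci. The edge of RIP140-null regions lay further upstream at 16 of these 24 loci and further downstream at 14. The share of all loci with such edges was not computed, so these counts are not a trait of the set.

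**Figure D3:**
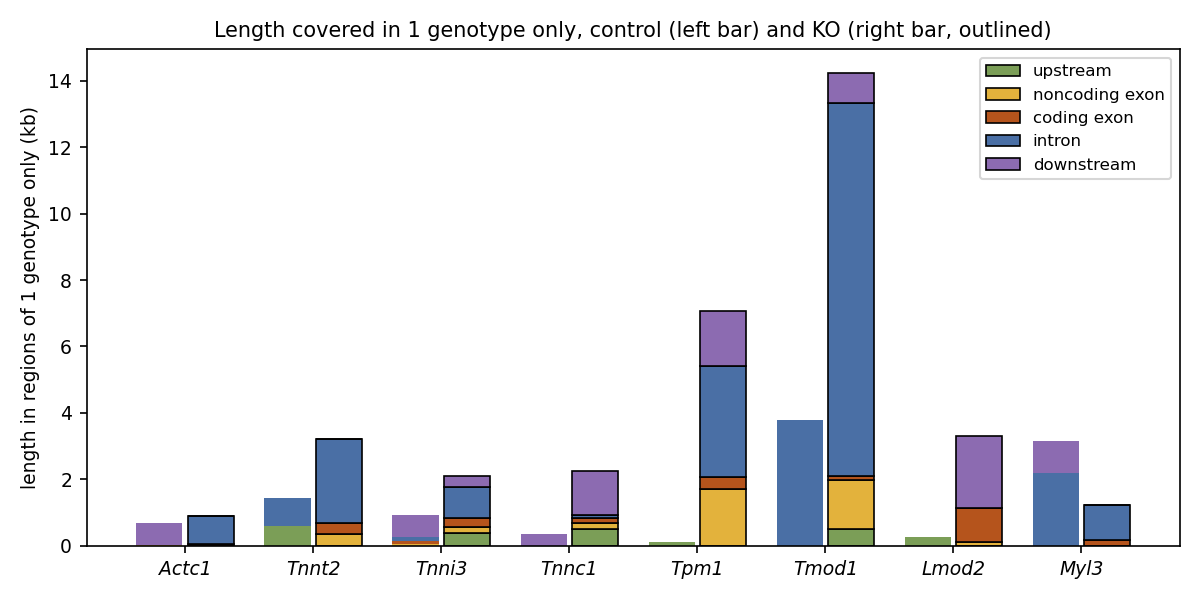
Length of each window covered in 1 genotype only, in kb, split by the annotation of the gene, with control as the left bar and RIP140-null CMs (KO) as the outlined right bar. The tallest bar is Tmod1 in KO, 14240 bp, of which 11243 bp are intron, and Myl3 is the one gene with more control-specific than KO-specific length.

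By base rather than by region, 34301 bp in 39 stretches were covered in RIP140-null CMs alone and 10701 bp in 22 stretches in control CMs alone. Introns held 20044 bp of the former and 6949 bp of the latter, and sequence downstream of the genes 6402 and 2623 bp. Coding exons held 2460 bp of the former, 1030 bp of them at Lmod2, and 90 bp of the latter. Upstream sequence held 1351 and 975 bp. Control-specific length exceeded RIP140-null-specific length at Myl3 alone (3143 against 1220 bp), and the gap between both was smallest at Actc1 (669 against 895 bp).

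At the starts, the regions of the set were wide in both genotypes. The median width of a region over a RefSeq start was 2574 bp over 7952 genes in control and 2779 bp over 8478 genes in RIP140-null CMs. The narrowest of the set in both genotypes was at Tnni3, wider than 79.3% of genes in control and 69.6% in RIP140-null CMs. In control CMs the order of width was Lmod2, Tpm1, Actc1, Tnnt2, Tnnc1, Tmod1, Myl3 and Tnni3. In RIP140-null CMs Tpm1 and Actc1 came before Lmod2, and Tnnt2 came after Tnnc1 and Tmod1. At 5 genes (Actc1, Tnnc1, Tpm1, Tmod1 and Myl3) the start region was wider in RIP140-null CMs, with log2 ratios from 0.05 at Actc1 to 0.38 at Tmod1. At Tnni3 (log2 -0.23), Tnnt2 (-0.59) and Lmod2 (-1.28) it was narrower, and at each of these 3 genes a gap in RIP140-null CMs cut what was 1 region in control CMs. Width of the start region and covered length of the window therefore went opposite ways at 4 genes, these 3 and Myl3.

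Matches to the same sequences were counted across the 159236 bp that the regions of either list cover at the 8 genes. MEF2 had 8 matches, at Tpm1, Tmod1 and Lmod2, or 0.050 per kb against 0.036 per kb over all regions. ERR had 9 matches at 5 genes (Actc1, Tnni3, Tmod1, Lmod2 and Myl3), or 0.057 against 0.033 per kb. CArG also had 9, or 0.057 against 0.055 per kb, and MCAT had 122, or 0.77 against 0.59 per kb. GATA had 23 matches (0.14 against 0.15 per kb). NKX2-5 sequences, TNAAGTG, were less frequent (0.42 against 0.61 per kb), as was TATAAA (0.56 against 0.95 per kb). The part of GC content, higher in these regions as given above, was not tested. Most matches lay in length common to both genotypes, which was 114234 of the 159236 bp searched. The counts were 7 of 8 for MEF2, 8 of 9 for CArG and 7 of 9 for ERR. They were 86 of 122 for MCAT, 15 of 23 for GATA, 49 of 67 for NKX2-5 and 59 of 89 for TATAAA. The CArG box of Actc1 and that of Myl3 upstream of the start were among those covered in both. No count of 8 or 9 matches can carry a comparison between genotypes.

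**Figure D4:**
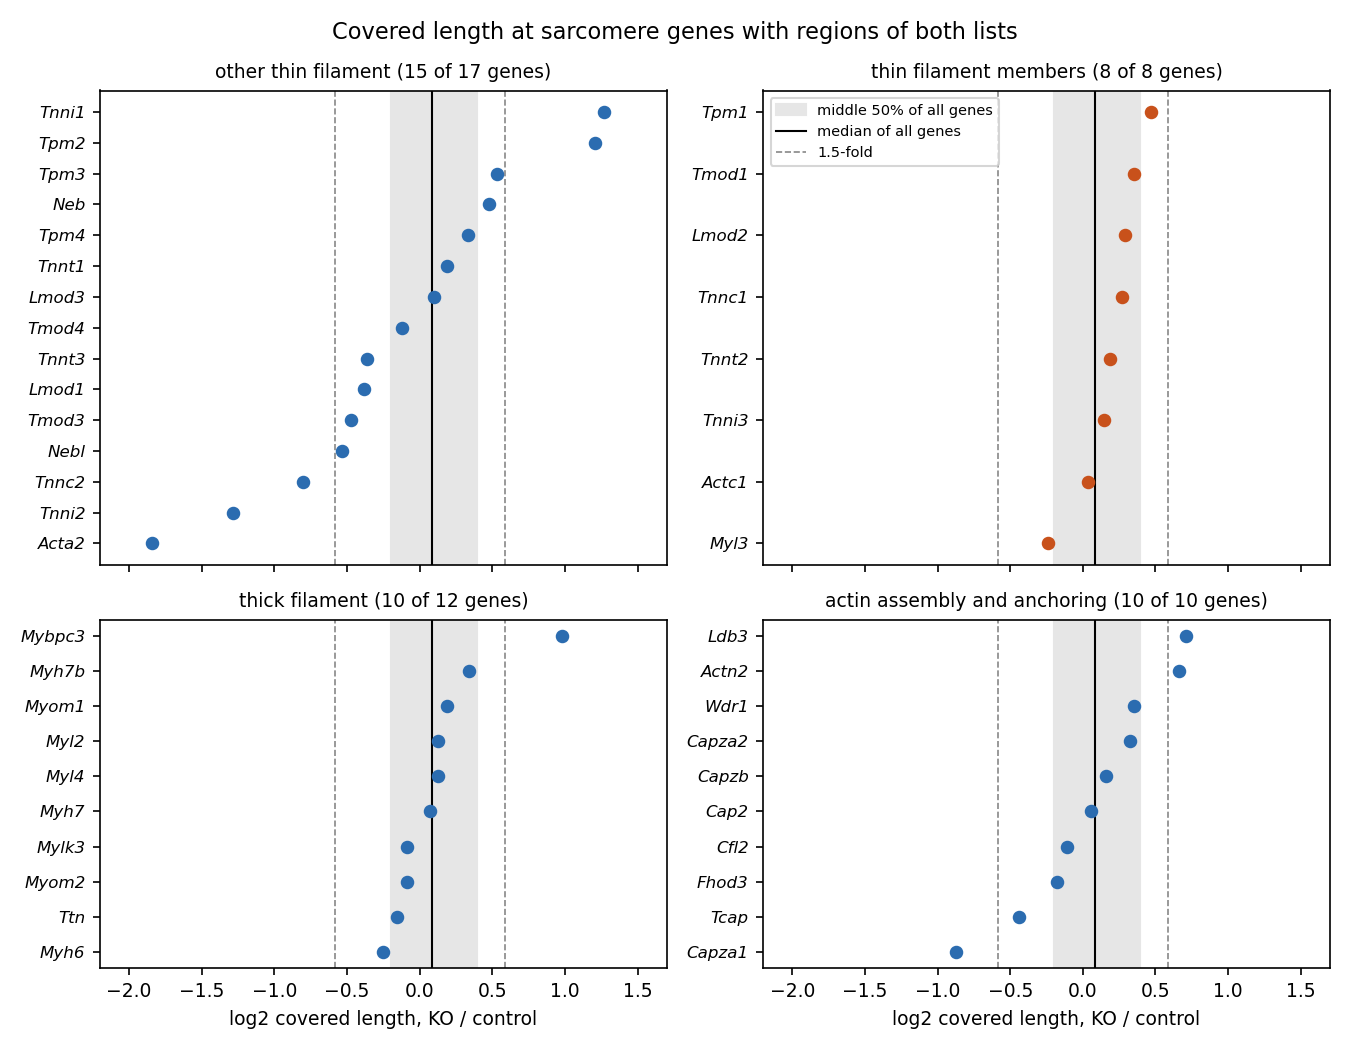
Log2 ratio of covered length, RIP140-null (KO) over control CMs, for each gene with regions of both lists, for the 8 members (orange) and 3 lists of related genes (blue), with the quartiles of all genes shaded, their median as a line and 1.5-fold as dashed lines. The members lie between -0.24 and 0.47, inside the dashed lines, and other thin filament genes between -1.85 and 1.27.

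Other thin filament genes, many of them known from skeletal or smooth muscle, were set beside the members. Tnnt1 of this list lies partly in the Tnni3 window, so regions over Tnnt1 were counted both here and for the members. Of 17 such genes, 15 had regions in both lists, and Acta1, skeletal alpha-actin, had none. The median log2 ratio of covered length was -0.12, with 7 genes covered over more bp in RIP140-null CMs and 9 over fewer. Past 1.5-fold were 6 genes, 2 of them longer (Tnni1, from 1646 to 3969 bp, and Tpm2, from 1448 to 3347 bp) and 4 shorter. The shorter ones were Acta2, smooth muscle actin (5289 to 1472 bp), the fast skeletal genes Tnni2 (3456 to 1416 bp) and Tnnc2 (980 to 561 bp), and Tmod2 (840 to 0 bp). Of these, Tpm2, Tnnc2 and Tmod2 were named after their values were seen. Tmod3 (34364 to 24783 bp) and Nebl (23145 to 16002 bp) had 3 and 4 control-only regions, and Neb (6223 to 8651 bp) 2 of each kind. In all, 16 of its 46 control regions (34.8%) were control-only and 6 of its 37 RIP140-null regions (16.2%) RIP140-null-only, beside 29.5% and 21.5% of all regions. A RefSeq start under regions of both lists was found at 4 of its 17 genes. Its median gene had 12.1% of its window covered in control CMs, against 55.9% for the 8 members.

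Of 12 thick filament genes, 10 had regions in both lists, with a median log2 ratio of 0.10, 7 longer and 4 shorter. The median gene of this list had 19.7% of its window covered in control and 23.2% in RIP140-null CMs. In this list 11 of 42 control regions (26.2%) were control-only and 12 of 43 RIP140-null regions (27.9%) RIP140-null-only, beside 29.5% and 21.5% of all regions. Mybpc3, cardiac myosin-binding protein C, was covered over 4670 bp in control and 9215 bp in RIP140-null CMs. Of its 4 RIP140-null regions, 3 were found in RIP140-null CMs alone. Mybphl was covered over 0 and 1574 bp. The remaining named genes of this list were Myh7b (6333 and 8032 bp), Ttn (16233 and 14585 bp), Myl4 (11147 and 12144 bp) and Myom2 (9954 and 9352 bp). Of 10 genes of actin assembly and anchoring, all had regions in both lists, with a median log2 ratio of 0.11, 6 longer and 4 shorter. Their median share of the window covered was 38.1% in control and 48.2% in RIP140-null CMs, closer to that of the 8 members (55.9% and 65.3%). Actn2, alpha-actinin of the Z disc (33783 and 53473 bp, log2 0.66), and Ldb3, a Z-disc protein that binds it (24975 and 40860 bp, log2 0.71), passed 1.5-fold longer. Capza1, a subunit of the capping protein of the barbed end (16721 and 9148 bp, log2 -0.87), passed 1.5-fold shorter. Fhod3, a formin that assembles actin, had 120924 bp in control and 106722 bp in RIP140-null CMs. Of its 30 control regions 13 were control-only, and of its 22 RIP140-null regions 8 were RIP140-null-only. Capza2 (9748 and 12237 bp) and Cap2 (32588 and 33908 bp) each had 2 RIP140-null-only regions, of 4 and 9. Over the 10 genes, 20 of 84 control regions (23.8%) were control-only and 19 of 68 RIP140-null regions (27.9%) RIP140-null-only.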

How the data were processed

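H3K27ac CUT&RUN regions of control and RIP140-null CMs were analysed. Alignment to GRCm38 by the authors used bowtie2 2.4.2, and duplicates were taken out with samtools. With Homer 4.11.1 they called regions for each replicate against IgG and merged those present in 2 or more of 3. The deposited lists hold start and end positions, a name and a score. The number that ends each name is called the subpeaks of a region below, and what it counts was not checked. The deposited score is the same for every region and was not used. Depth is unknown, and only the 2 lists, not replicates, could be compared.

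Other sequences than chromosomes 1 to 19, X and Y were dropped (21 control and 14 RIP140-null regions). A region was shared if it overlapped the other list by at least 1 bp. Covered length was clipped to the gene window, and 1.5-fold was the limit for a longer or shorter gene. A gene covered in 1 list only counted as past this limit. Intervals are 95% Wilson intervals. Motifs were matched exactly in GRCm38.p6. Positions count from 0 at the RefSeq start, a choice added after the GENCODE gene starts were seen to lie elsewhere. The members and gene lists were chosen with earlier results of these data known. All 8 members were named. From each related list at most 6 genes were named, by difference in bp. These were past 1.5-fold or had 2 or more genotype-only regions of the same genotype. From the other thin filament list, 3 more were named after their values were seen. Python 3.11.15, numpy 2.4.6, scipy 1.17.1 and pysam 0.24.0 were used. On simulated lists of 2000 genes, the covered lengths of 2000 were recovered.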

Additional observations from a re-analysis of the deposited data

How the results depend on the processing

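Counts of genotype-only regions at the 8 genes depended on the overlap required. RIP140-null-only regions numbered 8 when 50% of a region had to be covered and 15 (42.9%) with a reciprocal 50%, and control-only regions 4 and 11 (35.5%). Over all regions the RIP140-null-only share was then 29.2% and 42.4%, and the control-only share 34.4% and 51.2%. In gene bodies without extension the counts were 2 and 1, and with 20 kb on each side control-only regions numbered 4. Control-only regions numbered 1 among regions of at least 1000 bp and 1 among equal numbers of the widest regions. Without Tmod1, RIP140-null-only regions numbered 0 (0%). A gap of up to 1000 bp changed neither count. Limiting both lists to regions of 3 or more subpeaks was an alternative chosen after seeing the data. Then 2 genes passed 1.5-fold longer (Tpm1, log2 0.73, and Tmod1, 0.68), against 0 in the lists as deposited. The share of all genes past 1.5-fold was not computed for this alternative. The RIP140-null-only share of all RIP140-null regions was 37.4% there, against 21.5% in the lists as deposited. The log2 ratio of the total covered length stayed between 0.17 and 0.40 under every alternative run. Direction held in all 7 alternatives at Tnnt2, Tpm1, Tmod1 and Lmod2. It changed at Tnnc1 with 20 kb (log2 -0.15) and with 3 or more subpeaks (-0.07), at Actc1 with unclipped regions (-0.03), and with 3 or more subpeaks at Tnni3 (-0.06) and Myl3 (0.18). From 1000 bases upstream to 100 downstream, a MEF2 match was found in 1 promoter, GATA in 1, NKX2-5 in 3 and TATA in 3. The cause of these changes was not tested. No paired analysis was possible because the lists hold no value for single replicates, and for the same reason no replicate could be left out.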
